A study of Mus musculus with 16 samples.

Results

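The core spliceosome genes encode the proteins of the small nuclear ribonucleoproteins (snRNPs) and the factors that meet them on the pre-mRNA. They were chosen by name alone: annotated genes of the Snrp, Snrnp, Sf3a, Sf3b, Prpf, Lsm and U2af families, with Snrpn left out, that had at least 1 read. The rule gave 55 genes of the 24035 annotated genes with a read. By role they were 7 Sm genes, 6 U1 snRNP genes, 13 genes of the U2 snRNP and the 3′ splice site, 8 genes of the U4/U6.U5 tri-snRNP, 7 genes of the U6 LSm ring, 3 genes of the minor spliceosome, 5 other Prp genes and 6 other LSm genes. The names also took in genes that work elsewhere: Lsm1 belongs to the ring that promotes mRNA decapping, Lsm10 and Lsm11 belong to the U7 snRNP that processes histone mRNA, and Lsm12, Lsm14a and Lsm14b are LSm-domain proteins outside the spliceosomal snRNPs.

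Introns are removed by snRNPs that assemble step by step. The U1 snRNP pairs with the 5′ splice site, the U2 snRNP is placed at the branch point with the help of the U2AF dimer at the 3′ splice site, and the tri-snRNP then brings in the RNAs of the catalytic core. Several of these genes are known to control their own output by splicing their transcripts into forms that are degraded or do not encode the protein.

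RNA from the cortex and striatum of male mice aged 3 months was read with PacBio Iso-seq, which sequences whole cDNA molecules, to follow splicing in a model of Huntington's disease. The R6/2 mice (B6CBA-Tg(HDexon1)62Gpb/3J) carry a transgene with exon 1 of human HTT and an expanded CAG repeat, so they model a fragment of the mutant protein beside an intact mouse Htt, and the non-transgenic (NT) mice lack it. Each region held 4 NT and 4 R6/2 samples, 16 in all, and replicate numbers below are those of the labels. For 4 striatal samples (NT 1, NT 2, R6/2 2 and R6/2 3) the reads lay in 2 count files, which were summed, and the labels say that these hold 2 replicates.

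Depth was 252885 to 808814 reads in the cortical samples, 317050 to 811470 in striatal samples of 1 count file and 917832 to 1496196 in those of 2. Reads came without molecular identifiers, so intervals on shares of reads cover counting error only. The isoforms read averaged 1851 to 2101 nucleotides (nt) in the cortex, 1620 to 1886 nt in striatal samples of 1 file and 2142 to 2225 nt in those of 2. These are lengths listed for the isoforms, weighted by their reads, and not lengths measured on single reads. The summed level of 9 markers of striatal projection neurons was 10529 to 14444 reads per 1000000 in NT striatum, 1973 to 3412 in R6/2 striatum and 99.7 to 488 in cortex. Markers of cortical excitatory neurons summed to 468 to 756 in NT cortex, 244 to 323 in R6/2 cortex and 131 to 206 in striatum. Those of the choroid plexus summed to 9577 in striatum NT 3, against 39.4 to 330 in the other striatal samples and 4.49 to 1616 in cortex.

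The 55 genes drew 31602 reads, from 10 for Lsm14b to 3675 for Sf3b2. In each cortical NT sample they took 0.284% to 0.316% of the reads of annotated genes, and in each cortical R6/2 sample 0.325% to 0.391%. The cortical groups did not overlap. In the striatum the share was 0.379% and 0.449% in NT and 0.412% and 0.457% in R6/2 samples of 1 count file, and 0.258% and 0.256% against 0.307% and 0.307% in those of 2. The striatal genotypes therefore overlapped at 1 file, and the samples of 1 file lay above all those of 2. In bulk tissue, fewer cells of a type and less RNA per cell cannot be told apart.

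Levels are given as reads per 1000000 reads of the genes tested, scaled by TMM factors (CPM). They include reads that match only part of an annotated isoform. Reads covered cDNAs whole, so levels were not divided by length, and since the cDNA was amplified, reads are not counts of separate molecules. Sf3b2 and Sf3b1, subunits of the SF3b complex that holds the branch point, had the highest means, and the level of Sf3b2 was 331 to 520 CPM in cortex and 334 to 429 CPM in striatum. Its 4 groups overlapped. Snrpb, which encodes SmB, was the most read Sm gene, with 139 to 206 CPM in cortex and 77.2 to 178 in striatum. Snrpa, the A protein of the U1 snRNP, had 50.8 to 117 CPM in cortex and 79.5 to 126 in striatum. Snrnp27 led the tri-snRNP genes with 98.9 to 170 CPM in cortex, 164 to 310 in striatal samples of 1 file and 81.1 to 89.7 in those of 2. Lsm4 led the U6 ring with 48.1 to 113 CPM in cortex, 108 to 178 at 1 file and 62.7 to 90.7 at 2. Prpf4b, a kinase associated with the spliceosome, had 92.1 to 164 CPM in cortex, 171 to 406 at 1 file and 53.9 to 95.4 at 2. In the last 3 genes the striatal samples of 1 and of 2 files did not overlap. Lsm12 was the most read of the other LSm genes, at 45.8 to 101 CPM in cortex and 48.6 to 77.2 in striatum.

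**Figure D1:**
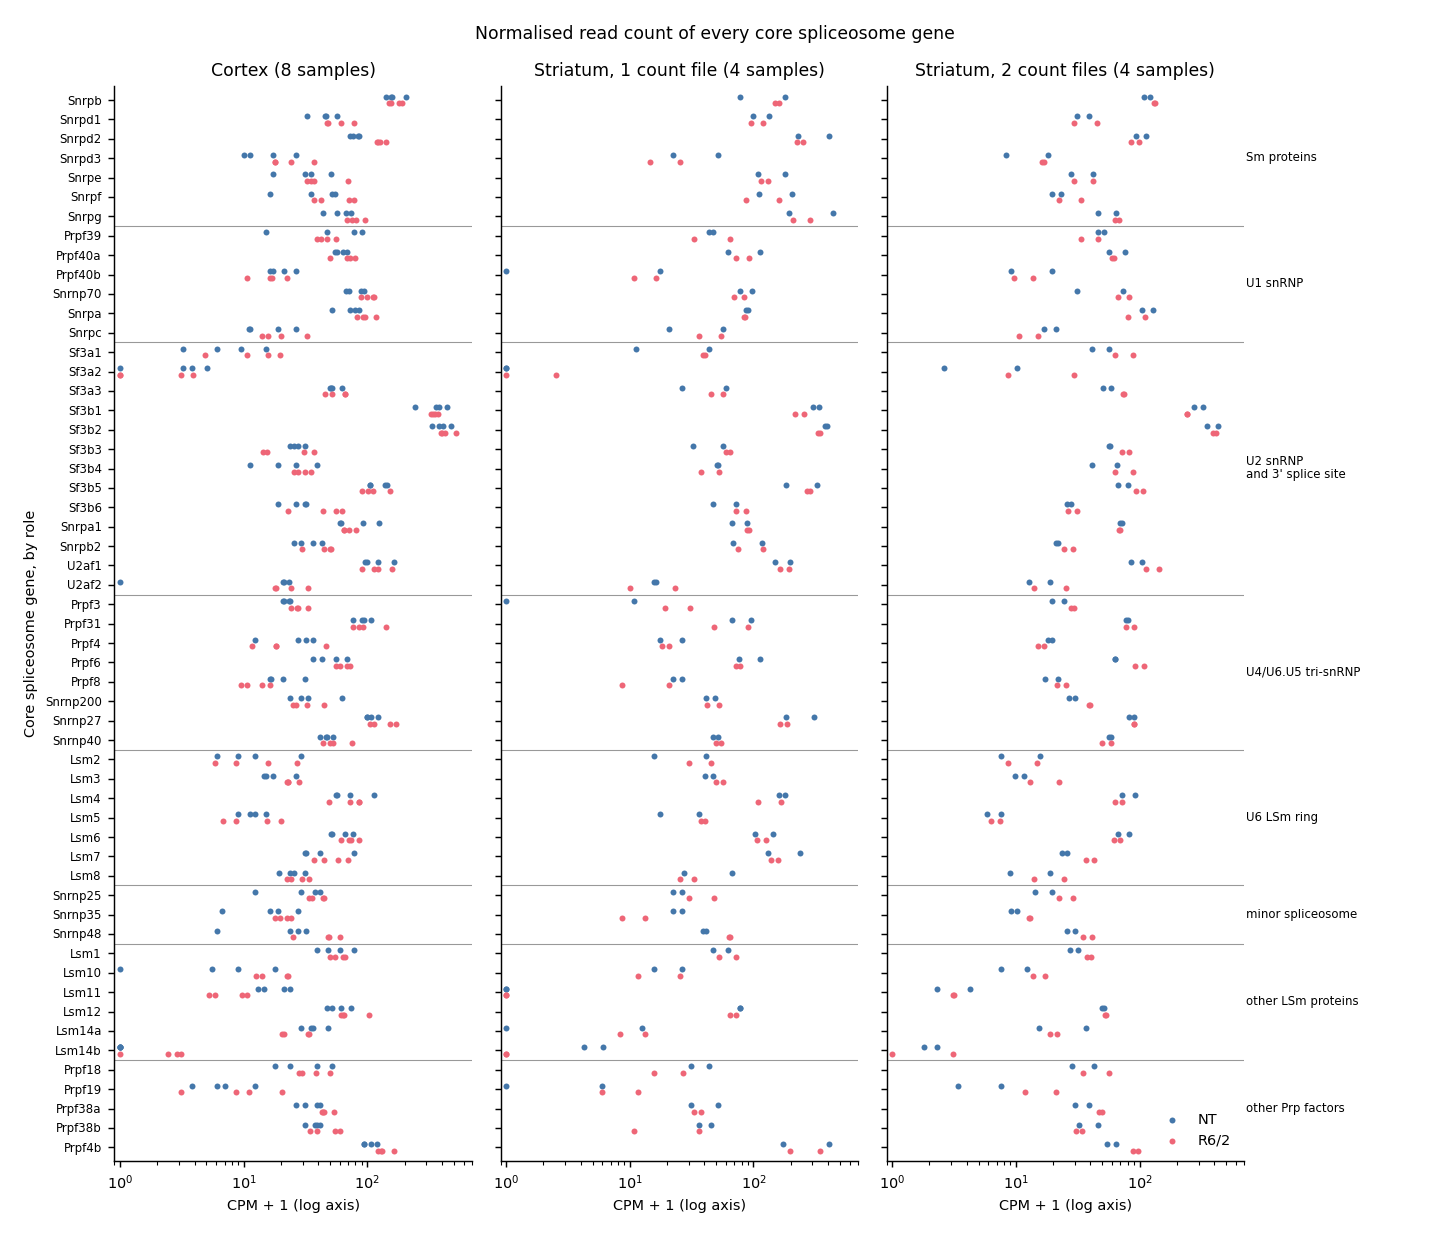
Level of each of the 55 core spliceosome genes in each sample (points), as CPM + 1 on a log axis, by role, with NT in blue and R6/2 in red. The panels are cortex, striatal samples of 1 count file and striatal samples of 2. Snrpg sits at 192 to 442 CPM in the middle panel, 45.4 to 67.0 on the right and 42.7 to 95.5 in cortex, while Sf3b2 lies between 331 and 520 in all 3.

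The isoforms of these genes were then read by class. TALON, the program that named them, calls a read known if its splice junctions match an annotated isoform, incomplete (ISM) if they match only part of one, and NIC or NNC if it joins known splice sites in a new way or uses a new site. Of the reads of the core spliceosome genes 58.2% were known, 36% incomplete, 3.81% NIC and 1.95% NNC. Over all annotated genes the shares were 76.6%, 15.9%, 4.45% and 3.12%. Most of the incomplete reads held the 5′ end of the transcript and lacked the 3′ end, 73.4% against 47.2% over all genes. By sample the incomplete share of the core spliceosome genes was 39.3% to 43.1% in cortex and 29.1% to 38.6% in striatum, and that of all genes was 17.1% to 20.9% and 11.9% to 20.1%.

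Incomplete reads were concentrated in some genes. In 11 genes complete reads (known, NIC or NNC) were under 50% of the total, and in 23 they were at least 90%. Prpf8, the large protein at the heart of the catalytic core, had 163 incomplete reads of 166. Prpf4b had 1153 of 1176, and 1007 of these were 1 model of 292 nt with the first 2 exons. Sf3b1 had 2429 of 2801, of which 1299 held the first 11 of 25 exons. Sf3b2 had 2881 of 3675 and Snrnp27 638 of 1128. The ranks by level given above thus rest on incomplete reads. Complete reads were 794 for Sf3b2 and 372 for Sf3b1, against 1269 for Snrpb and 1205 for Sf3b5. For Snrnp27 they were 490, against 671 for Prpf31. At the other end, Sf3b5, a small SF3b subunit with 1 exon, had 1205 known reads of 1205, and Snrpg, the SmG gene, 915 of 936. Prpf18, a factor of the second catalytic step, was read mostly as a NIC model of 11 exons, with 169 reads, against 44 reads of its annotated isoform of 10 exons.

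**Figure D2:**
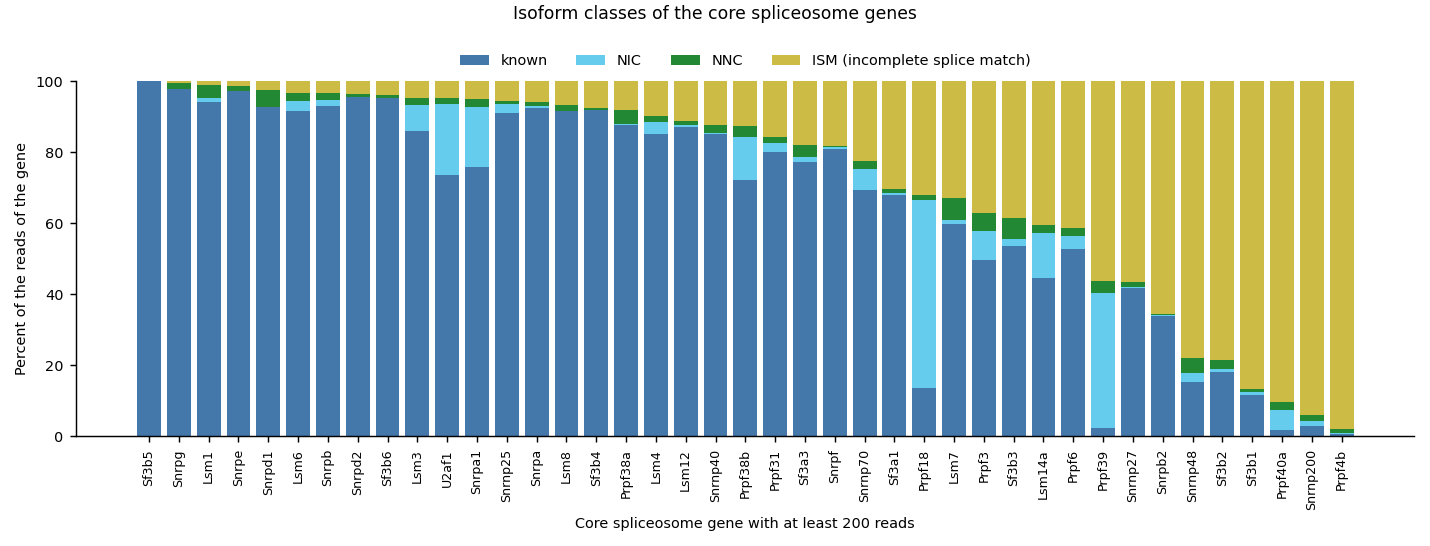
Percent of the reads of each core spliceosome gene that TALON called known, NIC, NNC or incomplete (ISM), summed over the 16 samples, for the 41 genes with at least 200 reads. Sf3b5 is known throughout, Prpf18 is mostly NIC, and Prpf4b at the right is nearly all incomplete.

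Known reads of the core spliceosome genes fell on isoforms that GENCODE lists as targets of nonsense-mediated decay or as retaining an intron in 1015 of 18395 cases (5.52%), against 1.89% over all annotated genes. By sample the share was 3.82% to 7.49% for these genes and 1.59% to 2.62% for all. The isoforms came from 27 of the genes, led by Prpf31 with 290 reads, Sf3b1 with 263 and Snrpa1 with 90. Stretches that set isoforms of these genes apart are printed here from the reference sequence of GENCODE M21 on mm10, 5′ to 3′ on the strand of the gene. The first pair shows the alternative exons of U2af1, both from coding isoforms, with the bases that differ between them in capitals. The third is the start of an additional exon of Snrpb, with the stop codon in capitals. The fourth is exon 6 of Snrpa1, whose absence defines a decay isoform, and nothing in it is marked. In the fifth and the last, capitals mark the first bases of an intron that the read isoform runs into. In the sixth, the end of the short Prpf31 isoform, they mark the longest run of A.
U2af1 exon a, chr17:31651646-31651712, minus strand: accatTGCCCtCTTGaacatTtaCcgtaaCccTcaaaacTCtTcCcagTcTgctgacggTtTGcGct
U2af1 exon b, chr17:31652502-31652568, minus strand: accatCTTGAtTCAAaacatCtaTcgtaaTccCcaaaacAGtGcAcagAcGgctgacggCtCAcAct
Snrpb additional exon up to its stop codon, chr2:130176695-130176752, minus strand: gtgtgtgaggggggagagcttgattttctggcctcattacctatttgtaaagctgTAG
Snrpa1 exon 6, chr7:66070119-66070198, plus strand: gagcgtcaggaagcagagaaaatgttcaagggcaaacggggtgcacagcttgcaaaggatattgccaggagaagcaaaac
Prpf31 exon 3 into intron 3, chr7:3630876-3630935, plus strand: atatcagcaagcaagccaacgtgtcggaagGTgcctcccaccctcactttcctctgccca
Prpf31 end of the short isoform, chr7:3631342-3631421, plus strand: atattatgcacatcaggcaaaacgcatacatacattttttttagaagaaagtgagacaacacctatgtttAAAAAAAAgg
Sf3b1 exon 4 into intron 4, chr1:55016346-55016405, minus strand: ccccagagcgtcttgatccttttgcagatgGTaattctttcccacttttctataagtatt

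Prpf31 encodes a tri-snRNP protein that holds U4/U6 to U5. Its leading isoform, the coding ENSMUST00000008517 of 14 exons (chr7:3629985-3642486), took 347 of 671 complete reads. The next, ENSMUST00000143231 (chr7:3629992-3631421), had 3 exons and took 290. This short isoform is listed as a retained intron: after exon 3 it runs 516 bases into intron 3, which is 1762 bases long, and ends there, at the last of the Prpf31 stretches printed above. The run of 8 A lies 2 bases before that end, and the last 80 bases hold neither AATAAA nor ATTAAA. The part of priming at this run in the reads was not tested. In the cortex the short isoform was 36.8%, 18.2%, 19.0% and 50.0% of the complete Prpf31 reads of NT samples 1 to 4, and 68.8%, 52.9%, 56.8% and 38.2% of those of R6/2 samples 1 to 4. The cortical groups overlapped, since NT 4 lay above R6/2 4. In the striatum it was 24.5%, 27.3%, 29.2% and 38.5% in NT and 59.6%, 51.4%, 47.5% and 52.9% in R6/2, with every R6/2 sample above every NT sample.

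The means were 31.0% ± 15.3 (SD, n = 4) in NT and 54.2% ± 12.6 in R6/2 cortex, and 29.9% ± 6.04 and 52.8% ± 5.05 in striatum. The two-sided exact permutation test gave p = 0.0571 in cortex and p = 0.0286 in striatum, the smallest p that 70 arrangements allow, and p = 0.0556 in striatum within numbers of count files, the smallest of 36. Over the 60 tests of this kind (30 shares in each region) the adjusted p was 0.343 in cortex and 0.286 in striatum. Depth per sample was small: cortex NT 2 had 6 of 33 reads, with a Wilson 95% interval from 8.61% to 34.4%, and striatum NT 4 had 5 of 13, from 17.7% to 64.5%. In edgeR's test of isoform usage across all genes Prpf31 had an adjusted p of 0.847 in cortex and 0.471 in striatum. With the genotype effect averaged over both regions, a fit added after the data were seen, it was 0.0895. The gene passed in none of these 3 usage tests. Isoforms of single genes were picked for description with their values already known.

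Snrpb lies on chromosome 2, and its leading isoform ENSMUST00000103199 (7 exons, chr2:130171635-130179403) encodes SmB. It took 86.8%, 86.6%, 90.3% and 82.1% of the complete reads in NT cortex, and 96.1%, 95%, 96.1% and 100% in R6/2 cortex. In the striatum it took 91.0%, 87.6%, 84.4% and 90.9% in NT and 93.7%, 93.3%, 98.3% and 91.8% in R6/2. In both regions every R6/2 sample lay above every NT sample. The means were 86.4% ± 3.37 and 96.8% ± 2.19 in cortex and 88.5% ± 3.13 and 94.3% ± 2.81 in striatum (SD, n = 4), and the exact permutation p was 0.0286 in each region, 0.286 after adjustment over the 60 tests. Within numbers of count files the striatal p was 0.0556, the smallest possible.

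The isoforms that made up the rest of Snrpb were rare. ENSMUST00000147570, listed as a decay target, holds an additional exon of 124 bases (chr2:130176629-130176752), and its reading frame stops 58 bases into it, as printed above. Such an exon with an early stop is known from human SNRPB, where its use follows the supply of Sm proteins. It was read 13 times among 233 complete reads in NT cortex and 2 times among 347 in R6/2 cortex, or 4.83% ± 3.3 and 0.506% ± 0.616 (exact permutation p = 0.143, n = 4 and 4). In striatum the counts were 12 of 296 and 12 of 393, or 3.04% ± 2.43 and 3.34% ± 1.49. A NIC model of 8 exons and 1685 nt had 6 and 2 reads in cortex and 7 and 1 in striatum. In edgeR's usage test in the cortex Snrpb had an adjusted p of 0.247, and 0.0423 when the test for the gene was an F test in place of Simes' method. In the striatum the usage test with Simes' method gave it an unadjusted p of 0.986. With the genotype effect averaged over both regions, in the fit added after the data were seen, the adjusted p of Snrpb was 0.257.

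U2af1 encodes the subunit of U2AF that reads the AG of the 3′ splice site. Its alternative exons each have 67 bases, differ at 23 of them and are thus 65.7% identical. The isoform with exon a (ENSMUST00000014684) had 717 of 1126 complete reads and the one with exon b (ENSMUST00000166526) 153. Exon b was 11.2% ± 5.94 of complete reads in NT cortex, 13.5% ± 3.86 in R6/2 cortex, 15.3% ± 2.06 in NT striatum and 13.5% ± 3.60 in R6/2 striatum (SD, n = 4), and all groups overlapped. The genotypes gave an exact permutation p of 0.543 in cortex and 0.486 in striatum. A NIC model of 6 exons, 155 nt shorter than the annotated isoforms, had 118 reads, and a NIC model of 9 exons, longer by the 67 nt of 1 such exon, had 41.

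Snrpa1 encodes the A′ protein of the U2 snRNP. Its decay isoform ENSMUST00000032723 leaves out exon 6, the 80-base stretch printed above, and had 89 of 655 complete reads. The share was 13.5% ± 7.47 in NT and 18.6% ± 6.78 in R6/2 cortex, and 12.7% ± 4.10 and 10.1% ± 5.24 in striatum, with overlap in both regions (exact permutation p = 0.371 and 0.486). Sf3b1 isoform ENSMUST00000187500 (10 exons, chr1:55003151-55027464) keeps intron 4, which is 1813 bases long, and had 248 of 2801 reads. It was 4.19% to 9.80% of Sf3b1 reads in cortex and 4.85% to 11.8% in striatum. Snrpa was read as 3 isoforms that differ at their 5′ ends, with 412, 265 and 121 of 832 complete reads. The first of these took 53.7% ± 3.99 of them in NT and 43.1% ± 3.13 in R6/2 striatum (exact permutation p = 0.0286, adjusted 0.286, and p = 0.0556 within numbers of count files) and 49.1% and 50.9% in cortex. Lsm6 was read as 2 isoforms, with 400 and 251 of 698.

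**Figure D3:**
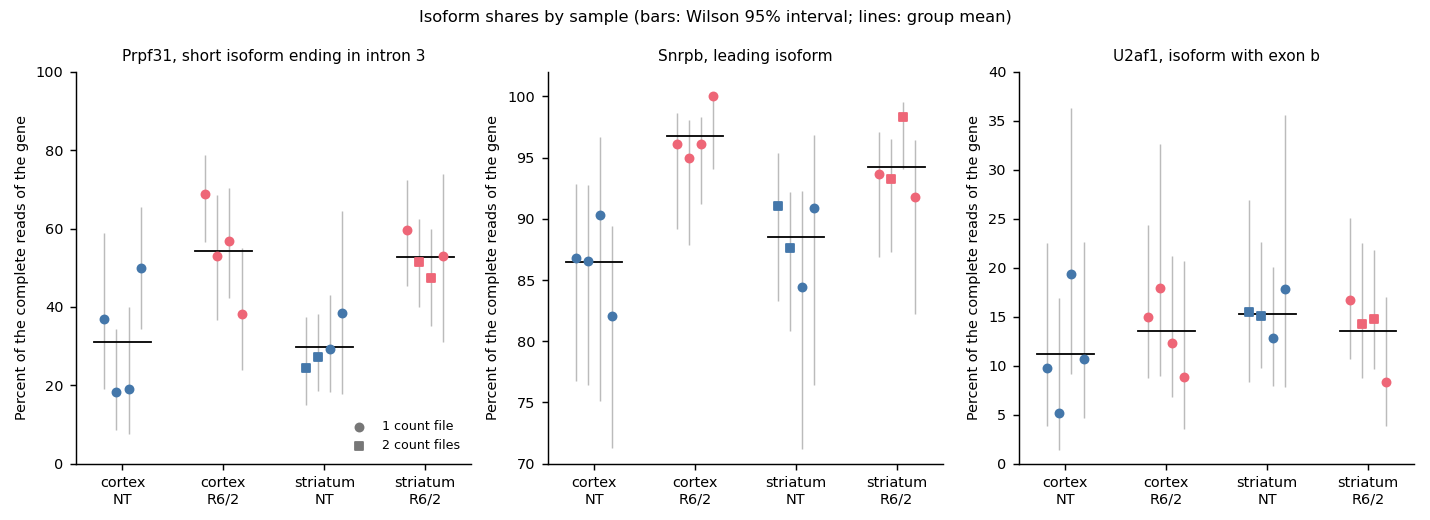
Share of complete reads of Prpf31, Snrpb and U2af1 on 1 isoform each, in percent, per sample (points, with Wilson 95% intervals) and as group means (lines), with squares for samples of 2 count files. The middle axis starts at 70. The R6/2 samples lie above the NT samples in both regions for the leading Snrpb isoform and in the striatum for the short Prpf31 isoform, and the groups overlap for U2af1 exon b.

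Across all genes, edgeR's usage test called 0 of 10 core spliceosome genes tested between R6/2 and NT cortex, against 0.36% of all genes, and 2 of them had an unadjusted p under 0.05. In the striatum it called 0 of 19, against 0.451%, with 1 at an unadjusted p under 0.05. With the gene-level F test 1 gene, Snrpb, was called in the cortex and 0 in the striatum. Averaged over both regions the usage test called 0 of these genes, against 1.05% of all. Between regions it called 0 of 28, against 1.44%, and 0 with the F test. The lowest p there belonged to Sf3b1 (0.0391), Sf3a3 (0.0407) and Snrpg (0.132). The shares of all genes at an unadjusted p under 0.05 and with the F test are not given here. Those counts are therefore descriptive only.

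The shares of full-length and incomplete reads of single genes were also compared between regions. The full-length Sf3b2 isoform of 21 exons was 1.20% to 8.75% of Sf3b2 reads in cortex, 3.90% to 19.1% in striatal samples of 1 file and 26.3% to 39.6% in those of 2. The incomplete model with 8 exons was 26.1% to 37.5% in cortex, 11.8% to 22.1% at 1 file and 7.67% to 16.2% at 2, so every striatal sample lay below every cortical one. The Sf3b1 model with the first 11 exons was 39.1% to 59.3% in cortex, 30.1% to 36.6% at 1 file and 38.6% to 44.6% at 2. With the 8 cortical samples against the 4 striatal samples of 1 file, the exact permutation test gave adjusted p values of 0.04, 0.00909 and 0.00909 for these shares, over 9 tests added after the data were seen. For full-length Sf3b2 the ranges overlapped in that comparison. With all 8 striatal samples, whatever their number of files, the values were 0.00245, 0.0014 and 0.00186. That comparison takes samples of 1 and of 2 files together, so it cannot separate region from file number. For the Sf3b1 model the samples of 2 files overlapped the cortex. The mean length of the isoforms read, given above, also set the samples of 2 files apart, and its part in these shares was not tested.

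The comparison of R6/2 with NT asks which genes the transgene changes. In the cortex 40 of the 55 genes passed the filter on low counts. edgeR's quasi-likelihood test with Benjamini-Hochberg adjustment called 0 of them, against 3.27% of all genes, and DESeq2 called 0. At an unadjusted p under 0.05 there were 4 genes by edgeR and 3 by DESeq2. The share of all genes at that threshold is not given here, so these counts are descriptive only. Of the 40 genes 33 had a positive log2 fold change, with a median of 0.24, against 51.8% of all genes and a median of 0.01. All 6 Sm genes tested were positive (median 0.42), as were the 4 LSm genes of the U6 ring (0.22), while 7 of 10 U2 and 3′ splice site genes were (0.11).

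Snrpd2, which encodes SmD2, came nearest to a call in the cortex. Its level was 76.2, 83.1, 71.2 and 84.7 CPM in NT samples 1 to 4 and 139, 125, 121 and 118 CPM in R6/2 samples 1 to 4. The groups did not overlap. The log2 fold change was 0.67 (SE 0.19) with an adjusted p of 0.0546, and 0.0408 with upper-quartile scaling or 0.0415 with reads of the genomic class added. In the striatum Snrpd2 had 228 and 406 CPM in NT and 223 and 251 in R6/2 at 1 file, and 92.0 and 111 against 97.3 and 84.8 at 2, a log2 fold change below 0. The genotype effects in striatum and cortex differed by -0.93 on the log2 scale (SE 0.26), with an adjusted p of 0.618 in edgeR.

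Snrnp48 encodes a protein of the U11/U12 di-snRNP, which recognises the introns of the minor spliceosome. Its level was 31.0, 22.5, 5.08 and 26.2 CPM in NT cortex and 47.8, 46.7, 59.2 and 24 in R6/2 cortex. In the striatum it was 25 and 29.2 CPM in NT against 40 and 33.9 in R6/2 at 2 files, and 37.8 and 40.6 against 62.3 and 63.9 at 1. The cortical groups overlapped through R6/2 4, and in the striatum the R6/2 samples lay above the NT samples at each number of files. The value of 5.08 CPM, in cortex NT 3, was 1 read. Of the 355 reads of the gene 277 were incomplete. The log2 fold change was 0.98 (SE 0.34, adjusted p = 0.142) in cortex and 0.54 (SE 0.20, adjusted p = 0.184) in striatum. Snrnp48 was the only core spliceosome gene tested that was called in a fit averaged over both regions, added after the data were seen. In that fit, which called 10.1% of all genes, the log2 fold change was 0.76 (SE 0.20) with an adjusted p of 0.0159. Without cortex R6/2 3 it was 0.67 with an adjusted p of 0.0526 and not called, and without any 1 of the other 15 samples it stayed called.

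Sf3b6, the SF3b subunit that lies at the branch point, had 31.0, 18, 25.4 and 30.3 CPM in NT cortex and 61.1, 42.4, 54.9 and 21.6 in R6/2 cortex. The groups overlapped through R6/2 4 (log2 fold change 0.83, SE 0.33, adjusted p = 0.196). Prpf4b, at 92.1 to 118 CPM in NT and 120 to 164 in R6/2 cortex, had a log2 fold change of 0.42 (SE 0.19, adjusted p = 0.257). Lsm11 was below the filter: it had 22.6, 13.5, 20.3 and 12.1 CPM in NT cortex, or 4 to 8 reads, and 9.55, 4.24, 8.66 and 4.81 in R6/2 cortex, or 2 to 6 reads. Also below the filter in cortex were Lsm10, Lsm14b, Lsm2, Lsm3, Lsm5, Prpf19, Prpf40b, Prpf8, Sf3a1, Sf3a2, Snrnp35, Snrpc, Snrpd3 and U2af2.

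In the striatum 48 of the 55 genes were tested, with the number of count files as a term in the fit. edgeR called 0 of them, against 4.34% of all genes, and DESeq2 called 0. At an unadjusted p under 0.05 there were 4 by edgeR and 2 by DESeq2, again without the share of all genes. Of the 48 genes 25 were positive (median 0.08). The median was -0.04 within samples of 1 count file and 0.26 within samples of 2, with 0 genes called in each. Of the U2 and 3′ splice site genes 10 of 12 were positive (median 0.24), of the U1 genes 1 of 5 (median -0.08) and of the Sm genes 1 of 7 (median -0.05). The count for the Sm genes depended on the scaling: 3 of 7 were positive in DESeq2 and 4 of 7 with upper-quartile scaling, with a median of 0.01. The genes below the filter were Lsm11, Lsm14a, Lsm14b, Prpf19, Prpf40b, Sf3a2 and Snrnp35. With no filter Sf3a2 (log2 fold change 1.96, adjusted p = 0.0295) and Prpf19 (1.70, adjusted p = 0.0321) were called. Sf3a2, a subunit of SF3a, had 7, 2, 0 and 0 reads in NT striatum and 1, 7, 27 and 0 in R6/2 striatum, so that most came from R6/2 3. Prpf19, a ubiquitin ligase of the catalytic spliceosome, had 5, 3, 3 and 0 reads in NT and 7, 10, 19 and 2 in R6/2.

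The lowest p values in the striatum belonged to Snrnp48 and to the SF3b genes Sf3b1 and Sf3b3. Sf3b1, the largest subunit, had 272, 325, 300 and 335 CPM in NT and 216, 239, 243 and 253 in R6/2, and every R6/2 sample lay below every NT sample. The log2 fold change was -0.38 (SE 0.15, adjusted p = 0.189), and in cortex the 4 R6/2 samples, at 327 to 371 CPM, lay within the NT range of 243 to 442. Sf3b3 had 56.5, 55.9, 31.2 and 55.9 CPM in NT and 59.2, 71.3, 80.5 and 63.9 in R6/2 striatum, without overlap (log2 fold change 0.50, SE 0.20, adjusted p = 0.219). The low value, NT 3, is the sample with the high choroid plexus sum, whose part was not tested.

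The test of the difference between regions in the genotype effect called 0 of 49 core spliceosome genes, against 0.0406% of all genes, and DESeq2 called 0. At an unadjusted p under 0.05 there were 3 by edgeR and 1 by DESeq2, again without the share of all genes. Beside Snrpd2 these were Snrpa (-0.58, SE 0.26, adjusted p = 0.85) and Prpf38b (-0.83, SE 0.40, adjusted p = 0.851). 

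**Figure D4:**
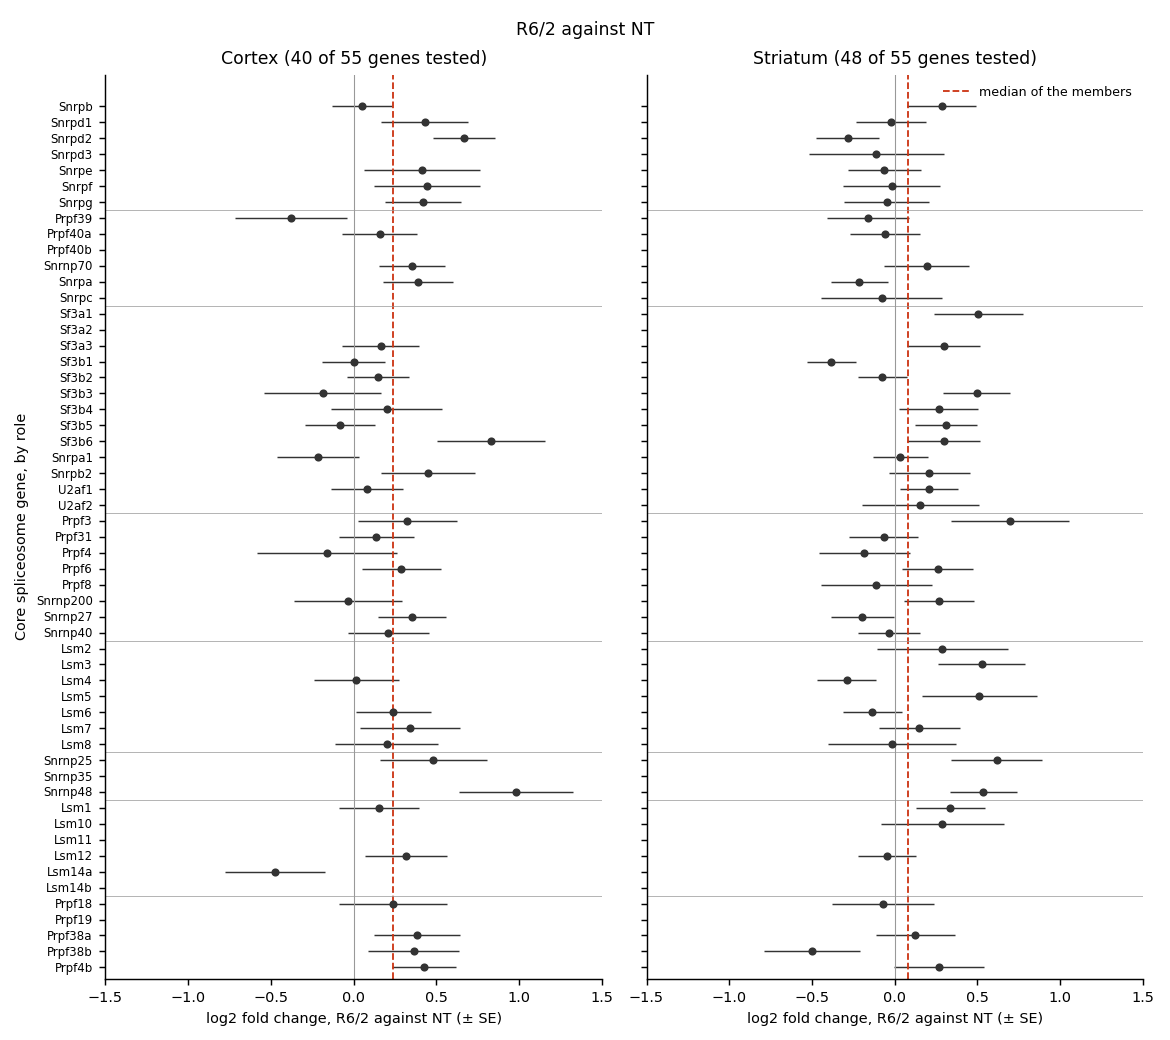
Log2 fold change of R6/2 against NT with its SE for each core spliceosome gene tested in cortex (40 genes) and in striatum (48 genes), by role, with a dashed line at the median of these genes. The cortical points lie mostly above 0 with a median of 0.24, the striatal points on both sides with a median of 0.08, and none passed an adjusted p of 0.05.

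Related genes outside the families were read from lists drawn up for this purpose. Of 68 other spliceosome genes 51 were tested in cortex and 59 in striatum, with medians of 0.06 and 0.09. In each region 1 of them passed, where 3.27% and 4.34% of all genes did. In cortex this was Rbm25, a U1-associated splicing factor, which rose from 157 to 193 CPM in NT to 221 to 357 in R6/2 (log2 fold change 0.76, SE 0.19, adjusted p = 0.0274). In striatum Txnl4a, the U5 protein Dim1, fell by 0.81 on the log2 scale (SE 0.19, adjusted p = 0.0317). Of 19 snRNP assembly genes 11 and 12 were tested, and 0 and 1 passed. Gemin7, of the SMN complex that loads Sm rings, rose in striatum by 1.17 (SE 0.30, adjusted p = 0.044).

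The comparison of regions depended on the number of count files. Within the striatum, samples of 2 files against samples of 1 gave 24 of 48 core spliceosome genes called, all 24 lower, where 30.4% of all genes were called and 19.1% were called lower. The 7 genes of the U6 LSm ring all fell, as did 5 of 7 Sm genes, while 2 of 8 tri-snRNP genes did. Among the Sm and U6 LSm genes, Snrpf (log2 fold change -2.66), Lsm5 (-2.51), Lsm7 (-2.51), Snrpg (-2.36) and Snrpe (-2.08) fell most. Outside the rings Snrpb2, a U2 snRNP gene, fell by 2.12 and Prpf4b by 2.02. Snrpg had 192 and 442 CPM in NT and 207 and 285 in R6/2 at 1 file, and 63.1 and 45.4 against 67.0 and 62.5 at 2. Those at 2 files lay in the range of the cortex, 42.7 to 95.5 CPM, where every sample had 1 file.

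The difference between file numbers followed the length of the longest annotated coding sequence. This is not the length listed for the isoform: Sf3b5 has 258 nt of coding sequence, and its reads were assigned to an isoform listed at 3841 nt. Of 18 genes with a longest coding sequence under 500 nt 15 were called (median -1.60), and of 14 genes with at least 1500 nt 2 were (median -0.11). Across the 48 genes, which share libraries and are not independent, Spearman's rho between coding length and the log2 fold change was 0.74. What set the files apart was not tested.

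**Figure D5:**
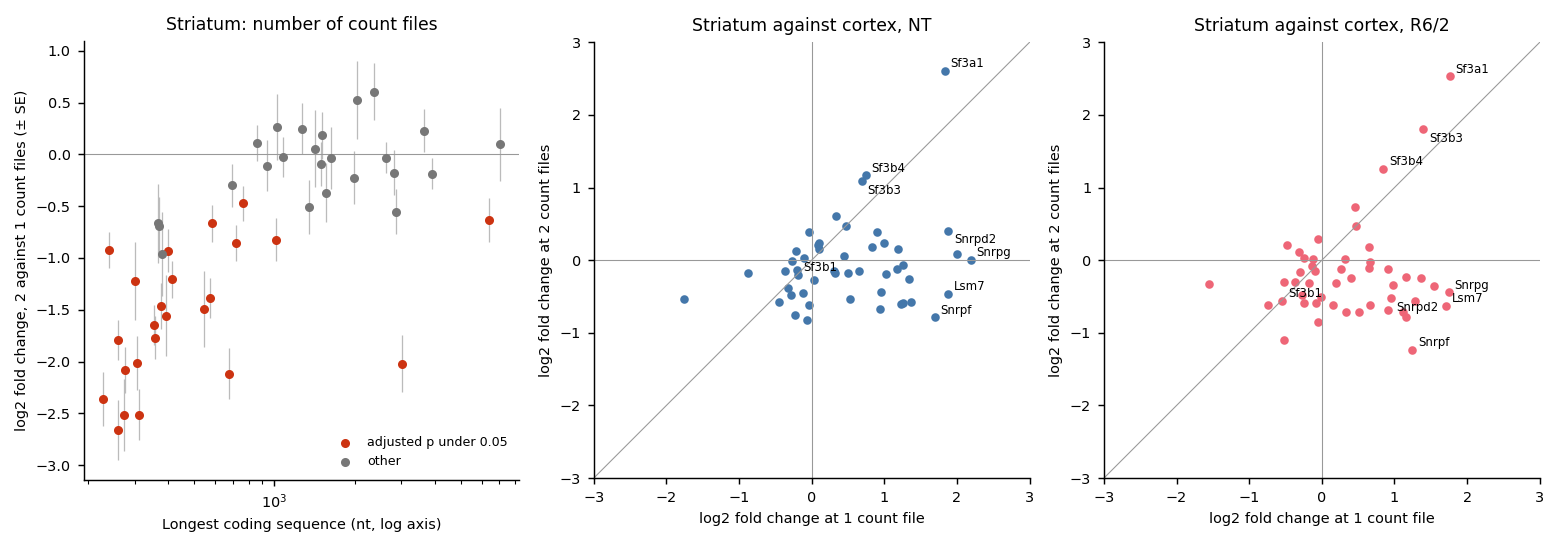
Left, log2 fold change in the striatum between samples of 2 and of 1 count file (with SE) against the longest coding sequence of the gene in nt on a log axis, for 48 genes, with genes at an adjusted p under 0.05 in red. Middle and right, log2 fold change of striatum against cortex with striatal samples set at 1 file (horizontal) and at 2 files (vertical), for 49 genes in NT and in R6/2. Snrpg and Lsm7 lie far right near or under 0, and Sf3a1 lies high on both axes.

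Set at 1 file, striatum against cortex in NT gave 17 of 49 genes called, 16 of them higher, where 33.4% of all genes were called and 15.8% higher. In R6/2 it gave 18 called, 16 higher, where 27.3% and 12.9% were. The lists shared 14 genes, 13 of them higher. In NT they were led by Snrpg (2.19, SE 0.28, adjusted p = 3.0e-06), Snrpe (2.00, SE 0.34), Snrpd2 (1.88, SE 0.21) and Lsm7 (1.88, SE 0.32). The next were Snrpf (1.69), Snrpb2 (1.37), Snrpd1 (1.34), Prpf4b (1.25), Lsm4 (1.19) and Snrnp27 (1.03). In R6/2 the first were Snrpg (1.74, SE 0.26), Sf3b5 (1.37, SE 0.22), Lsm7 (1.71, SE 0.29) and Snrpe (1.55, SE 0.30). Lsm14a, a protein of cytoplasmic RNA granules, was lower in striatum in both, by -1.76 (SE 0.47) and -1.55 (SE 0.46). Within the striatum it was below the filter on low counts. It entered these contrasts through the cortex, where it was higher, so that its call is no independent support.

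Set at 2 files, 6 genes were called in NT, where 22.2% of all genes were, and 9 in R6/2, where 25.1% were. Of the genes higher at 1 file, 10 in NT and 13 in R6/2 were below 0 at 2. Sf3b5 in NT, and Prpf4b, Snrpb2, Snrpd1 and Snrpf in R6/2, were called in opposite directions. For these genes the sign of the difference between regions depended on the number of striatal files.

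Several genes of SF3a and SF3b had the same direction at both numbers of files. Sf3a1, a subunit of the SF3a complex, had 8.46, 2.25, 5.08 and 14.1 CPM in NT cortex and 55.2, 40.5, 42.7 and 10.2 in NT striatum. In R6/2 it had 3.82, 14.9, 18.8 and 9.62 CPM in cortex and 38.0, 62.7, 88.0 and 39.3 in striatum. The R6/2 regions did not overlap, and the NT regions overlapped through striatum NT 4, with 2 reads. The log2 fold change was 1.84 (SE 0.52, adjusted p = 0.00866) at 1 file and 2.61 (SE 0.46, adjusted p = 0.000221) at 2 in NT, and 1.76 (SE 0.42, adjusted p = 0.00318) and 2.53 (SE 0.37, adjusted p = 2.85e-05) in R6/2. It passed in all 4 contrasts. Within the cortex Sf3a1 was below the filter on low counts, with 1 to 13 reads a sample, and it entered these contrasts through the striatum, where it was higher, so that its call is no independent support. Of the 49 genes 9 were below the filter within the cortex. Among these Lsm3, Sf3a1 and Snrpc were called in NT, and Lsm3 and Sf3a1 in R6/2, and the same limit holds for these calls.

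Sf3b3 and Sf3b4 were higher in R6/2 striatum at both numbers of files. For Sf3b3 the log2 fold change was 1.40 (SE 0.29, adjusted p = 0.00112) and 1.80 (SE 0.27, adjusted p = 4.39e-05). For Sf3b4, which contacts the pre-mRNA upstream of the branch point, it was 0.85 (SE 0.31, adjusted p = 0.0455) and 1.26 (SE 0.28, adjusted p = 0.00209). In NT both passed at 2 files only, with 1.09 (SE 0.29) and 1.17 (SE 0.32), and were 0.69 and 0.75 at 1. Sf3b1 was lower in R6/2 striatum, by -0.54 (SE 0.19, adjusted p = 0.0409) and -0.56 (SE 0.19, adjusted p = 0.0338), and did not pass in NT (-0.19 and -0.20). That the genotypes differed in these regional effects did not pass its own test.

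The filter on low counts took out Lsm11, Lsm14b, Lsm5, Prpf19, Prpf40b and Sf3a2 in these contrasts. Lsm11 was read 8, 6, 4 and 6 times in NT and 5, 2, 6 and 2 times in R6/2 cortex, and 1, 4, 0 and 0 times in NT and 0, 2, 2 and 0 times in R6/2 striatum. Its 8 cortical samples, at 4.24 to 22.6 CPM, lay above the 8 striatal ones, at 0 to 3.24. A count of 0 allows up to 3 reads, and some cortical samples had 2, so the gap between regions is not established. Among the 60 other spliceosome genes tested at 1 file, 7 were higher and 5 lower in NT striatum, and 7 and 6 in R6/2, where 33.4% and 27.3% of all genes were called. At 2 files 1 was higher and 9 lower in NT, and 4 and 13 in R6/2, against 22.2% and 25.1%. Sart3, which recycles U4/U6, was lower in NT striatum by -1.68 (SE 0.33) at 1 file and -1.35 (SE 0.29) at 2, and in R6/2 by -1.58 (SE 0.32) and -1.25 (SE 0.28), and was called each time. Aqr, an intron-binding helicase, was called at 1 file (1.41, SE 0.36, in NT and 1.25, SE 0.31, in R6/2) and not at 2 (0.46 and 0.30). Of the 12 snRNP assembly genes 2 were higher and 1 lower in NT at 1 file, and 0 and 1 in R6/2. Strap, of the SMN complex, was called lower in both at 1 file (-1.13, SE 0.24, and -0.90), and in neither at 2 (-0.42 and -0.19).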

How the data were processed

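PacBio reads of full-length cDNA from cortex and striatum of 4 NT and 4 R6/2 mice per region had been aligned by the authors to mm10 with minimap2 2.17-r941 and assigned to isoforms with TALON. The deposited tables hold raw read counts per isoform in 7 TALON classes, without TALON's filter on isoforms. Here the 20 count files were summed per sample, and known, incomplete, NIC and NNC reads were summed per gene. The p-values measure the spread between these samples.

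Gene counts were tested with edgeR 4.0.16 (R 4.3.3; filterByExpr, TMM, quasi-likelihood F test, Benjamini-Hochberg over all genes, threshold 0.05). Fits with the striatum had a term for count files. CPM are per 1000000 reads of the genes passing the filter over 16 samples, after TMM. Isoform usage was tested with diffSpliceDGE (Simes) on known, NIC and NNC isoforms of at least 10 reads. Shares of reads were compared by two-sided exact permutation tests in scipy 1.17.1. Alternatives were DESeq2 1.42.0, other scalings, no filter, other classes, no term for files, a replicate block and leaving out each sample. The tests were checked on simulated data. Isoform types and sequences came from GENCODE M21, in which 99.6% of the known isoforms were found.

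The genes named are, per comparison, those called in order of p (up to 10, or the 3 of lowest p where fewer than 3 were called), the most read gene of each role, all genes below the filter, the most read genes with several isoforms, and called genes of related lists. Other genes were picked with their values known. The members and lists were chosen with earlier results of these data known.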

Additional observations from a re-analysis of the deposited data

Results flagged for a closer look

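Among 196 groups of 4 samples, the levels and isoform shares described for the core spliceosome genes, 11 held a sample whose gap to the nearest other took nearly the whole range of the group by Dixon's test. Chance flags about 1 in 20 groups, and the number flagged here was near that share.

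Of the levels, Snrpe stood at 68.8 CPM in cortex R6/2 1, against 31.3 to 36.1 in the other 3 samples, and Lsm3 at 26.7 CPM in the same sample, against 21.2 to 21.7. Sf3b3 stood at 31.2 CPM in striatum NT 3, against 55.9 to 56.5, and in that sample its 1-exon isoform in intron 1 took 54.5% of complete reads, against 22.7% to 27.6%.

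Of the isoform shares, the 4-exon isoform of Lsm6 took 48.4% in cortex NT 4, against at most 31.8% in the other samples. The Sf3b1 isoform keeping intron 4 took 4.85% in striatum R6/2 4, against 10.9% to 11.8%. The 9-exon isoform of Snrnp48 took 25% in striatum NT 4, against 8.70% to 11.1%. An NNC isoform of Snrpb took 0% in striatum NT 4, or 0 of 33 reads, against 2.22% to 2.33%. The NIC isoform of Snrpb took 1.64% in striatum R6/2 4, where the other 3 samples had 0, so that any read there would be flagged. In cortex NT 1 it took 1.47%, against 2.99% to 3.23%. The NIC isoform of U2af1 with 6 exons took 5.13% in cortex R6/2 2, against 13.3% to 13.8%. Several of these shares rest on few reads, and no explanation was tested.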

How the results depend on the processing

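In cortex the count of core spliceosome genes called for genotype went from 0 to 1 (Snrpd2) with upper-quartile scaling and with genomic reads added, and in striatum from 0 to 2 (Sf3a2, Prpf19) with no filter. Striatum against cortex gave 17 genes in NT and 18 in R6/2. Without the term for count files these were 4 and 3, of which 2 and 3 were shared with the calls above, and at 2 files, chosen after seeing the data, 6 and 9. The cause was not tested. Set at 2 files, 14 of the values named changed sign. In NT these were Lsm7 (-0.46), Snrpd1 (-0.26), Snrpf (-0.79), Snrpb2 (-0.57), Prpf4b (-0.59) and Snrnp27 (-0.19). In R6/2 they were Snrpg (-0.44), Sf3b5 (-0.25), Lsm7 (-0.63), Snrpe (-0.36), Snrpd2 (-0.52), Lsm3 (-0.56), Snrpb2 (-0.78) and Prpf4b (-0.72). Isoform usage in cortex went from 0 to 1 gene (Snrpb) with the F test, and between regions from 0 to 3 with incomplete reads added. The shares of all genes in these settings are not given here. Leaving out 1 sample at a time gave 16 to 23 genes in NT and 14 to 25 in R6/2 between regions, and 0 in the other 6 comparisons. DESeq2 gave 17 and 19, and moved the median of all genes between regions from -0.11 to -0.02 in NT and from -0.10 to 0.01 in R6/2. With the replicate number as a block the counts were 17 in NT and 15 in R6/2 between regions and 0 elsewhere. In no comparison were all same-numbered samples correlated over 0.1: 9 of 16 correlations were, from -0.577 to 0.665. Differences between file numbers were not removed from these values. Between genotypes in striatum, pairs of equal file number gave 0.415 and 0.665, and pairs of unequal number -0.577 and -0.418. There, file number and any pairing cannot be told apart. In R6/2 across regions 6 of 8 samples correlated best with their own number, a hint from the data and not from the design. Samples of few reads limit the isoform shares, and 15 of the 55 genes were below the filter in cortex.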

Other observations

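Reads of the genomic class, which TALON gives to unspliced or partly genomic models, were left out of the gene counts. The most read such model in a core spliceosome gene was a 1-exon model of 1632 nt in Snrnp200, the U5 helicase that unwinds U4/U6, with 323 reads. Its level was 8.46 to 20.3 CPM in NT cortex and 13.0 to 63.7 in R6/2 cortex. In the striatum it was 57.5 to 168 CPM in samples of 1 count file and 4.86 to 23.8 in those of 2. The next were a model of 502 nt in Lsm7 with 58 reads and one of 1641 nt in Snrnp70 with 46 reads.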
